A study of Mus musculus with 15 samples.

Results

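The genes described here are the members of 6 solute carrier families that carry amino acids or their transporter subunits across membranes. They were chosen by symbol alone, as every gene of families SLC1, SLC3, SLC7, SLC36, SLC38 and SLC43. Of 22180 genes on the arrays 44 matched, and 42 of these are transporters or heavy chains. The other 2, Slc7a6os and Slc36a1os, are opposite-strand genes and were counted apart. The families held 7, 2, 15, 4, 11 and 3 of the 42 genes, in the order just given. The brightest probe set of each gene was used, no dim gene was removed, and all 42 were tested.

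The study measured RNA of the abdominal and the thoracic aorta of DBA/2NCrl mice, a strain used in work on soft-tissue calcification, after 5 days on a high-phosphate diet or on standard chow. The high-phosphate diet held 20.2 g of phosphorus per kg and the chow 7.0 g per kg, and feeding began at an age of 8 weeks. There were 4 abdominal and 3 thoracic arrays on high phosphate, and 4 abdominal and 4 thoracic arrays on chow. No mutation or drug is named for any group, and the labels do not say whether the segments came from the same mice, so p-values measure the spread between the arrays as deposited.

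Amino acid transporters set which amino acids enter a cell, leave it or move out of its lysosomes. The SLC7 light chains Slc7a5, Slc7a6, Slc7a7, Slc7a8, Slc7a10 and Slc7a11 reach the cell surface bound to the glycoprotein heavy chain Slc3a2, and most of them exchange an amino acid on the inside for another on the outside. SLC1 carriers take up glutamate or small neutral amino acids, SLC38 carriers couple neutral amino acids to sodium, SLC36 carriers couple small ones to protons, and Slc43a1 and Slc43a2 carry large neutral ones without exchange. In many cells this supply, above all of leucine and arginine, is read by the mTORC1 kinase at the lysosome.

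Smooth muscle genes were bright in every array, with Myh11, the smooth muscle myosin heavy chain, at 10.35 to 11.49 and Acta2, smooth muscle actin, at 10.87 to 12.08 on the log2 scale of the deposited values. Marker genes of other tissues were also bright in some arrays, and in such bulk tissue fewer cells of a type and less RNA per cell cannot be told apart. For T and NK cells, 11 marker genes averaged 7.25 to 7.76 in arrays 1, 2 and 4 of the abdominal high-phosphate group and 7.09 and 7.58 in arrays 2 and 4 of the abdominal chow group, against 5.31 to 5.85 in the other 10. For hepatocytes, 11 marker genes averaged 8.57 and 10.82 in arrays 3 and 4 of the abdominal high-phosphate group, against 5.08 to 6.53 in the other 13. Where a call of a member named below was lost without either set of arrays, the value without them is given. Without the T and NK cell set, the abdominal high-phosphate group keeps only array 3, which is high in hepatocyte genes. For genes outside the 6 families such values were not taken. Arrays of a group correlated at 0.9739 to 0.9885 across probe sets (Pearson's r).

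On high phosphate, 6 transporter genes rose and 1 fell in the abdominal aorta, and 5 rose and none fell in the thoracic aorta. The 5 that rose in both segments were Slc7a8, Slc3a2, Slc43a1, Slc43a3 and Slc38a9, and Slc7a5 rose and Slc36a2 fell in the abdominal aorta. A gene counts as changed at an adjusted p under 0.05 in limma, with Benjamini-Hochberg adjustment over all 22180 genes. The 7 of 42 called in the abdominal aorta are 16.7%, where 7.01% of all genes were called, and the 6 higher are 14.3%, where 1.95% of all genes were higher and 5.06% lower. The 5 of 42 called in the thoracic aorta are 11.9%, where 2.47% of all genes were called, 1.39% higher and 1.08% lower. Averaged over both segments 8 rose and 1 fell, 21.4% of the members against 10.7% of all genes (4.53% higher and 6.18% lower), with Slc1a3 and Slc36a4 added to the genes above. The median member differed by 0.08 (log2) in the abdominal and 0.07 in the thoracic aorta, where the median of all genes differed by -0.01 in both. The diet groups did not overlap in 15 members in the thoracic aorta, 35.7% against 13.8% of all genes, with 12 higher and 3 lower on high phosphate where 7.09% and 6.67% of all genes were. They did not overlap in 8 members in the abdominal aorta, 19% against 11.9% of all genes, with 7 higher and 1 lower where 4.12% and 7.75% of all genes were. Without the 5 abdominal arrays high in T and NK cell genes, which leaves 1 high-phosphate and 2 chow arrays there, Slc7a8 alone was called in the abdominal aorta, at 1.99 (limma adjusted p = 0.03779). The 1 high-phosphate array left is array 3, which is high in hepatocyte genes, so this fit is not free of other tissue. The differences of 5 of the other 6 were then at least as large in size. They were 0.81 for Slc3a2, 0.89 for Slc43a1, 0.72 for Slc43a3, 0.54 for Slc7a5 and -1.60 for Slc36a2. That of Slc38a9 was smaller, at 0.23. Array 3 was the highest of its group for Slc7a8, Slc3a2 and Slc43a3, but not for Slc43a1, Slc7a5, Slc38a9 or Slc36a2.

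**Figure D1:**
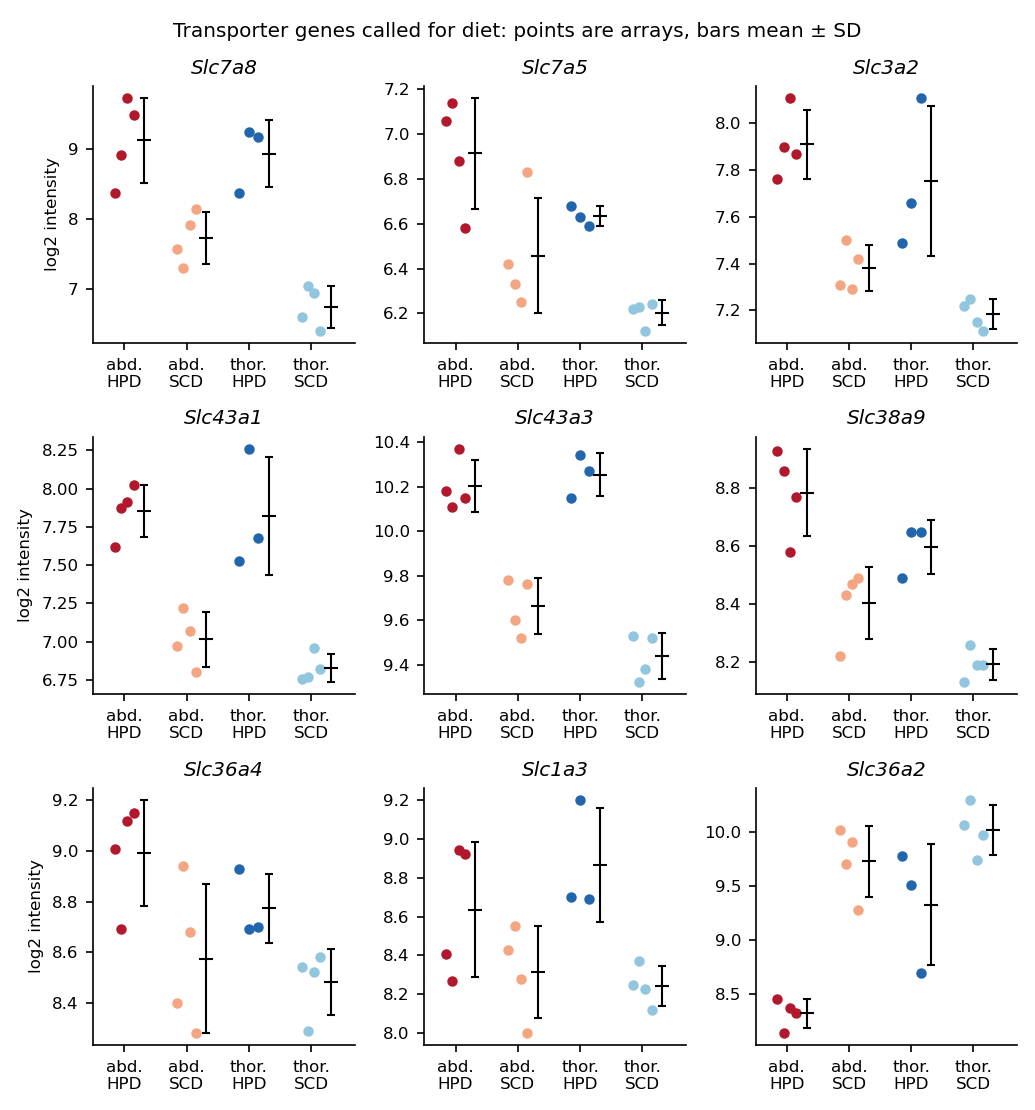
Log2 intensity of the transporter genes called for diet, 1 point per array, with abdominal high-phosphate, abdominal chow, thoracic high-phosphate and thoracic chow arrays from left to right and the group mean as a bar. Slc7a8, Slc43a1, Slc43a3, Slc3a2 and Slc38a9 are higher on high phosphate in every array of both segments, while Slc36a2 is lower in every abdominal array.

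For the light chain Slc7a8 and its heavy chain Slc3a2, 2 of the 5 members called in both segments, the 250 bases before the gene start are printed. Slc7a11, a light chain of the same heavy chain that was not called, and Slc1a3 are set beside them because their upstream bases hold the motifs searched for. The motifs were TGATGNAA, the core of the amino acid response element bound by ATF4, and AGAACA, a core of the glucocorticoid response element, on both strands and with no overlap between the motifs required or removed. Capitals mark matches in these RefSeq sequences of build GRCm38.p6.
Slc7a8 (chr14:54781887-54782136, minus strand): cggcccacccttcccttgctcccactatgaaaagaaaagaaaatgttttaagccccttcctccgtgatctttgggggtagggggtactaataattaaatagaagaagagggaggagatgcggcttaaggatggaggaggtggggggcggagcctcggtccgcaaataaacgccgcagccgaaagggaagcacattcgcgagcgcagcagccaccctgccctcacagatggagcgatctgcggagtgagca
Slc3a2 (chr19:8713898-8714147, minus strand): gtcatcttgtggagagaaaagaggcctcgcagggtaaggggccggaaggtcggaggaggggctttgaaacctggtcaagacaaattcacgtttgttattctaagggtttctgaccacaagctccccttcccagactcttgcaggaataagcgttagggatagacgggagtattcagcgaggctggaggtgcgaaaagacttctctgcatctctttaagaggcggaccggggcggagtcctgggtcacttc
Slc7a11 (chr3:50443614-50443863, minus strand): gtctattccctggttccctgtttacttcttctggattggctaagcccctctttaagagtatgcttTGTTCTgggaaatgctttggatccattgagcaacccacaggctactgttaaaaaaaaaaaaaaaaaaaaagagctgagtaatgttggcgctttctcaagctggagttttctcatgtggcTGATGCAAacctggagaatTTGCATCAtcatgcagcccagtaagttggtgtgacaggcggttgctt
Slc1a3 (chr15:8710808-8711057, minus strand): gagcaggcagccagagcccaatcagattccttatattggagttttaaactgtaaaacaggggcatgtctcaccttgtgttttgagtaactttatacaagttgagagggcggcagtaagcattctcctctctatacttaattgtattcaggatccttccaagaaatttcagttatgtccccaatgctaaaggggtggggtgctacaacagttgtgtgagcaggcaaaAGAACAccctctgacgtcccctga

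Sequences were matched by symbol for 33 of the 44 genes, and for 11 of the 16 called in any comparison. TGATGNAA was present before 1133 of 32841 gene starts, which is 3.45%, and AGAACA before 16.1%. Among the members TGATGNAA was found for Slc7a11 and Slc7a7, and for 0 of the 11 called members. AGAACA was found for 6 members, of which Slc1a3 and Slc36a1 were among the 11 called. A member with several starts was counted if any of them matched, as for Slc7a7, Slc38a4 and Slc7a1. The shares above are of single gene starts, so the counts and shares are not in the same unit. Slc7a11 holds the amino acid response core on either strand, in the letters TGATGCAA and TTGCATCA.

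Slc7a8, a light chain that exchanges neutral amino acids of many sizes, had the largest diet difference of the 42 members in the average of both segments. In the abdominal aorta it stood at 8.37, 8.91, 9.73 and 9.49 (log2) on high phosphate, against 7.57, 7.31, 7.92 and 8.14 on chow. The lowest high-phosphate array lay above the highest chow array. The difference was 1.39 ± 0.279 (SE), 2.63-fold, with a limma adjusted p of 0.006156. Thoracic Slc7a8 stood at 8.38, 9.25 and 9.18 on high phosphate, against 6.61, 7.05, 6.95 and 6.40 on chow. The groups were again apart, by 2.19 ± 0.302, 4.55-fold (limma adjusted p = 0.001872). The abdominal difference minus the thoracic one was -0.79, with a 95% interval of -1.67 to 0.08, and was not called. Without abdominal high-phosphate arrays 3 and 4, which were high in hepatocyte genes, the abdominal difference was 0.91 with a limma adjusted p of 0.06148.

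Slc3a2, the heavy chain that brings Slc7a8 and Slc7a5 to the surface, stood at 7.76, 7.90, 8.11 and 7.87 in abdominal high-phosphate arrays, against 7.31, 7.50, 7.29 and 7.42 on chow. Every high-phosphate array was above every chow array, and the difference was 0.53 ± 0.114, 1.45-fold (limma adjusted p = 0.009757). Its thoracic values were 7.49, 7.66 and 8.11 on high phosphate, against 7.22, 7.25, 7.15 and 7.11 on chow. The groups did not overlap there either, with a difference of 0.57 ± 0.123, 1.49-fold (limma adjusted p = 0.02372). The abdominal call was lost without the 2 arrays high in hepatocyte genes, at a difference of 0.45 (limma adjusted p = 0.06177). The thoracic call was lost without high-phosphate array 2 or 3 or chow array 1 or 4, and, at the same difference of 0.57, in the fit without the 5 abdominal arrays high in T and NK cell genes (limma adjusted p = 0.05135). The other heavy chain, Slc3a1, partner of the light chain Slc7a9, ranged from 5.04 to 7.29 over all arrays and was not called. Its 2 highest values, 5.94 and 7.29, were in abdominal high-phosphate arrays 3 and 4, those high in hepatocyte genes.

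Slc7a5, the light chain that imports leucine and other large neutral amino acids, was called in the abdominal aorta and in the average. It stood at 7.06, 7.14, 6.88 and 6.58 in abdominal high-phosphate arrays, against 6.42, 6.33, 6.25 and 6.83 on chow. High-phosphate array 4 lay below chow array 4, so the groups overlapped. The abdominal difference was 0.46 ± 0.127, 1.37-fold (limma adjusted p = 0.04173). Thoracic values of Slc7a5 were 6.68, 6.63 and 6.59 on high phosphate, against 6.22, 6.23, 6.12 and 6.24 on chow. Those groups were apart, by 0.43 ± 0.137, which was not called (limma adjusted p = 0.1303), and the average was 0.44 ± 0.0936 (limma adjusted p = 0.005814). The abdominal call ended in 16 of 26 other settings, most of them with 1 array left out.

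The remaining light chains of Slc3a2 were not called for diet. Slc7a6, which exchanges cationic for neutral amino acids, differed by -0.04 in the abdominal and 0.21 in the thoracic aorta, and Slc7a10, a carrier of small neutral amino acids, by -0.29 and -0.15. Slc7a11, which exports glutamate for cystine, stood at 6.76, 6.57, 4.00 and 6.83 in abdominal high-phosphate arrays, against 4.11, 5.43, 4.20 and 6.06 on chow. Its high and low arrays were spread over both diets, and its abdominal difference of 1.09 ± 0.548 was not called (limma adjusted p = 0.2906). The abdominal arrays with Slc7a11 above 5 were the 5 with high T and NK cell genes, and the part of that RNA in the values was not tested. Thoracic Slc7a11 lay at 3.81 to 4.59 on high phosphate and at 3.65 to 4.15 on chow.

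Among the uniporters of SLC43, Slc43a1, a carrier of large neutral amino acids, and Slc43a3, which is known to carry purine bases rather than amino acids, rose in both segments. Slc43a1 stood at 7.62, 7.87, 7.91 and 8.02 in abdominal high-phosphate arrays, against 6.97, 7.22, 7.07 and 6.80 on chow. Thoracic Slc43a1 stood at 7.53, 8.26 and 7.68 on high phosphate, against 6.76, 6.77, 6.96 and 6.82 on chow. The diets were apart in both segments, by 0.84 ± 0.139 (limma adjusted p = 0.001524) and by 0.99 ± 0.150 (limma adjusted p = 0.003105), 1.79-fold and 1.99-fold.

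Slc43a3 stood at 10.18, 10.11, 10.37 and 10.15 in abdominal high-phosphate arrays, against 9.78, 9.60, 9.52 and 9.76 on chow. Its thoracic values were 10.15, 10.34 and 10.27 on high phosphate, against 9.53, 9.32, 9.38 and 9.52 on chow. No high-phosphate array reached down to a chow array in either segment. The differences were 0.54 ± 0.0791, 1.45-fold, in the abdominal aorta (limma adjusted p = 0.0006262) and 0.81 ± 0.0855, 1.76-fold, in the thoracic aorta (limma adjusted p = 0.0003839). Slc43a1 and Slc43a3 lie on the same chromosome with the coding gene Rtn4rl2 between them, which differed by -0.10 and -0.03 and was not called. Slc43a2, the third of the family, differed by 0.01 and -0.12 and was not called.

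Of 11 SLC38 members, Slc38a9, the lysosomal carrier that passes arginine signals to mTORC1, was the only one called for diet. It stood at 8.93, 8.86, 8.58 and 8.77 in abdominal high-phosphate arrays, against 8.22, 8.43, 8.47 and 8.49 on chow. Thoracic values of Slc38a9 were 8.49, 8.65 and 8.65 on high phosphate, against 8.13, 8.26, 8.19 and 8.19 on chow. Both segments were free of overlap, with differences of 0.38 ± 0.0822, 1.30-fold (limma adjusted p = 0.009965), and 0.40 ± 0.0888, 1.32-fold (limma adjusted p = 0.02619). The thoracic call was lost without high-phosphate array 2 or 3 or chow array 1 or 4. Slc38a2, a sodium-coupled carrier that cells raise when amino acids run short, stood at 9.44 to 9.79 in abdominal high-phosphate arrays and 9.20 to 9.38 on chow. Those ranges were apart, and its difference of 0.28 ± 0.0836 was not called (limma adjusted p = 0.05715). The abdominal values of Slc38a4, a carrier abundant in liver, were 6.93 and 9.84 in high-phosphate arrays 3 and 4 and at most 6.01 in arrays 1 and 2, against 6.03 to 6.15 on chow. The 2 highest values were thus in the arrays high in hepatocyte genes. Slc38a3, which carries glutamine in liver, also stood highest there, at 5.52 and 7.17, against 4.86 to 5.05 on chow, and neither gene was called.

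In SLC36 the proton-coupled carrier Slc36a2, found on the surface of brown adipocytes, was the only member of the 42 that fell. It stood at 8.46, 8.14, 8.37 and 8.33 in abdominal high-phosphate arrays, against 10.02, 9.71, 9.91 and 9.28 on chow. The gap between the groups was wide, and the difference was -1.41 ± 0.202, 2.65-fold lower on high phosphate (limma adjusted p = 0.000534). Its thoracic values were 9.78, 9.51 and 8.70 on high phosphate, against 10.07, 10.30, 9.74 and 9.97 on chow. High-phosphate array 1 lay above chow array 3, and the difference of -0.69 ± 0.218 was not called (limma adjusted p = 0.1212).

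The mean of 9 brown adipocyte genes moved with Slc36a2. It was 7.15 to 7.73 in abdominal high-phosphate arrays and 8.80 to 9.24 on chow, and all 9 genes fell. The thoracic mean was 8.02 to 8.63 on high phosphate and 9.21 to 9.47 on chow, and 5 of the 9 fell. The part of brown adipocyte RNA in the Slc36a2 result was not tested. The adjacent genes on chromosome 11, Slc36a1 and Slc36a3, were not called for diet. Slc36a4, a carrier without proton coupling, stood at 9.01, 8.69, 9.12 and 9.15 in abdominal high-phosphate arrays, against 8.40, 8.94, 8.68 and 8.28 on chow. Thoracic Slc36a4 stood at 8.93, 8.69 and 8.70 on high phosphate, against 8.54, 8.29, 8.52 and 8.58 on chow. The abdominal groups overlapped and the thoracic groups did not, and the gene was called in the average at 0.35 ± 0.0992 (limma adjusted p = 0.03199), and its other probe set differed by 0.13 with an unadjusted limma p of 0.05982. That call ended in 11 of 25 other settings, among them the fit without the 2 arrays high in hepatocyte genes, at 0.28 (limma adjusted p = 0.1179).

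Of 7 SLC1 members Slc1a3, a glutamate carrier, was called in the average. It stood at 8.41, 8.27, 8.94 and 8.92 in abdominal high-phosphate arrays, against 8.43, 8.55, 8.28 and 8.00 on chow, and the groups overlapped. In the thoracic aorta it stood at 8.70, 9.20 and 8.69 on high phosphate, against 8.25, 8.37, 8.23 and 8.12 on chow, without overlap. The average difference was 0.47 ± 0.120 (limma adjusted p = 0.01822), and the call was lost without thoracic high-phosphate array 2 (0.0598) or, at 0.32, without the 2 arrays high in hepatocyte genes (0.0666). The abdominal difference alone was 0.32, and 0.02 without those 2 arrays. Macrophage genes were also brighter on high phosphate, with a mean of 7 genes at 7.93 to 8.28 against 7.52 to 7.93 on chow in the abdominal aorta and 7.93 to 8.56 against 7.58 to 7.78 in the thoracic aorta. Of these 7 genes 4 rose in the average. The mean of 7 adventitial fibroblast genes was 8.33 to 8.49 in abdominal high-phosphate arrays, against 9.06 to 9.32 on chow, and 5 of the 7 fell there. In the thoracic aorta that mean was 8.72 to 9.17 on high phosphate, against 9.10 to 9.22 on chow, and 2 fell. The part of macrophage and fibroblast genes in the transporter results was not tested.

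The diet differences of the 2 segments were also set against each other. In limma 0 of 42 members and 0 of 22180 genes were called for abdominal minus thoracic, where 4 members and 5.49% of all genes had an unadjusted p under 0.05. The 4 were Slc1a5, Slc36a2, Slc43a3 and Slc7a3, with values of -0.52, -0.72, -0.27 and -0.42. The lowest adjusted p among the members was 0.8747, so a change called in only 1 segment is not shown to differ from the other.

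**Figure D2:**
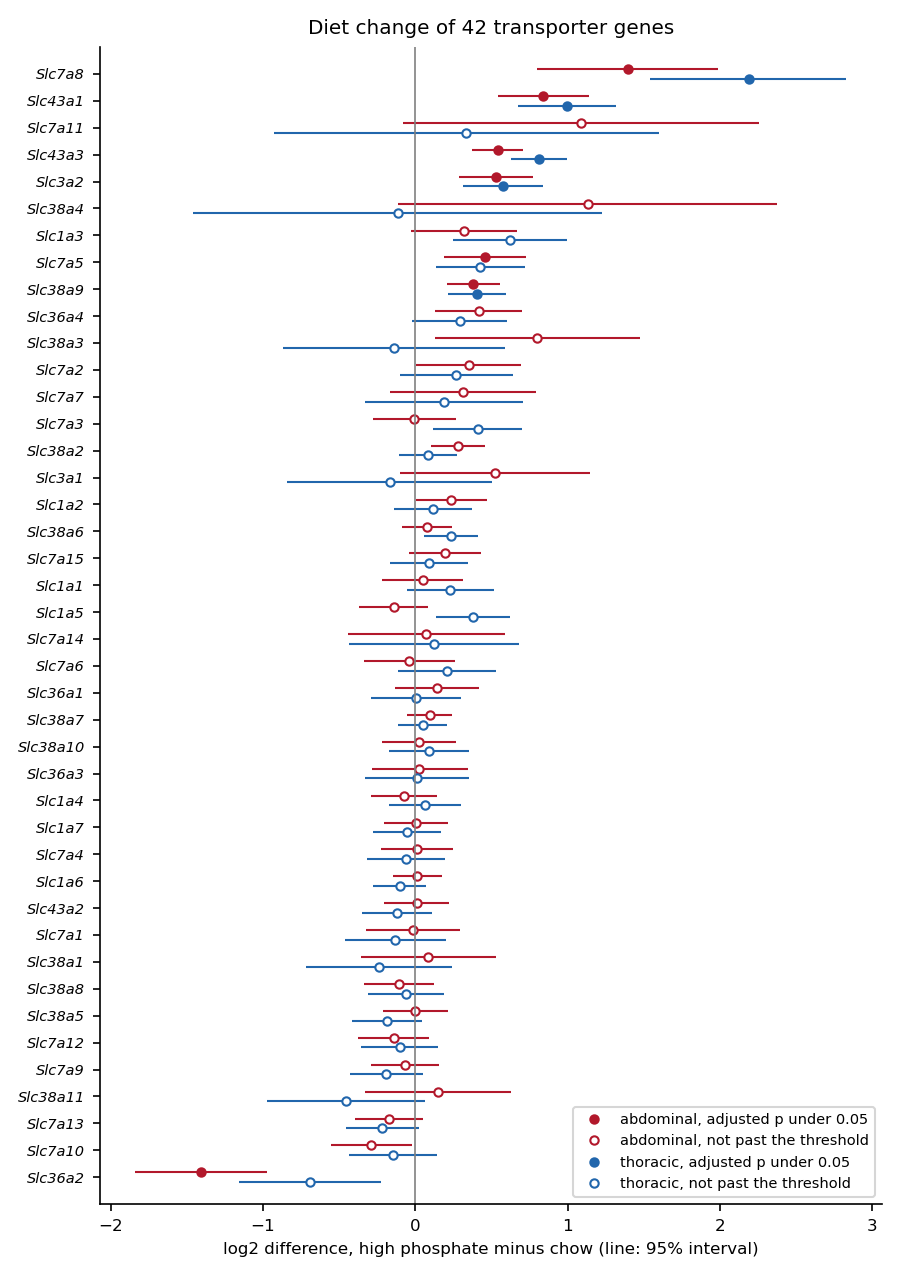
Log2 difference between high phosphate and chow for each of the 42 members with its 95% interval, with the abdominal aorta and the thoracic aorta in separate colours and filled points for adjusted p under 0.05. Slc7a8 lies farthest above 0, at 1.39 in the abdominal and 2.19 in the thoracic aorta, and Slc36a2 farthest below it, at -1.41 in the abdominal aorta.

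Between the segments 6 members differed on high phosphate and 3 on chow. On high phosphate Slc1a5, Slc36a2 and Slc7a6 were higher and Slc36a1, Slc38a11 and Slc7a14 lower in the thoracic aorta, which is 14.3% of the members where 13.8% of all genes were called. On chow Slc7a14, Slc7a3 and Slc38a6 were lower in the thoracic aorta, 7.14% of the members where 4.78% of all genes were called. The share on high phosphate was close to the background, and on chow the count rests on 3 genes. The segments did not overlap in 8 members on either diet, 19% against 23.8% of all genes on high phosphate and 12% on chow. On high phosphate 3 of the 8 were higher and 5 lower in the thoracic aorta, 7.14% and 11.9% of the members against 13.7% and 10.1% of all genes. On chow 1 was higher and 7 lower, 2.38% and 16.7% of the members against 6.01% and 5.97% of all genes. Among those lower on chow was Slc7a8, at 6.40 to 7.05 in the thoracic and 7.31 to 8.14 in the abdominal aorta. It was not called in the main fit and was called in some other settings. These included only the groups compared and a random block by diet and replicate number, both at -0.98 (limma adjusted p = 0.02406 and 0.03935). Other marker lists also differed between the segments. The mean of 9 cardiac muscle genes was 8.47 to 8.97 in thoracic high-phosphate arrays, against 6.10 to 6.33 in abdominal ones, and 8.14 to 8.75 in thoracic chow arrays, against 6.21 to 6.33 in abdominal ones. Of 8 smooth muscle genes 8 were called higher in the thoracic aorta on high phosphate and 4 on chow. Their part in the transporter results was not tested. Counts moved with the arrays used: on high phosphate 11 members were called without abdominal high-phosphate array 3, and on chow 1 was called without abdominal chow array 3 or 4 or thoracic chow array 3 and 5 without abdominal chow array 2.

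Slc7a14, a lysosomal member of the cationic branch of SLC7 expressed in neurons, was the only member called on both diets. On high phosphate it stood at 6.52, 6.51 and 6.66 in the thoracic aorta, against 8.09, 8.38, 8.46 and 7.70 in the abdominal aorta. On chow it stood at 6.39, 6.60, 6.33 and 6.45 in the thoracic aorta, against 7.67, 7.40, 8.70 and 8.58 in the abdominal aorta. The segments were far apart on either diet, by -1.60 ± 0.261 on high phosphate (limma adjusted p = 0.001386) and -1.65 ± 0.242 on chow (limma adjusted p = 0.001062), 3.02-fold and 3.13-fold lower. The mean of 9 genes of sympathetic neurons and chromaffin cells was 5.78 to 6.54 in thoracic high-phosphate arrays, against 8.04 to 8.40 in abdominal ones, and 5.66 to 5.86 in thoracic chow arrays, against 7.46 to 8.56 in abdominal ones. Within the abdominal chow arrays Slc7a14 and this mean were both lowest in array 2 and highest in array 3, and the part of this RNA in the result was not tested.

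**Figure D3:**
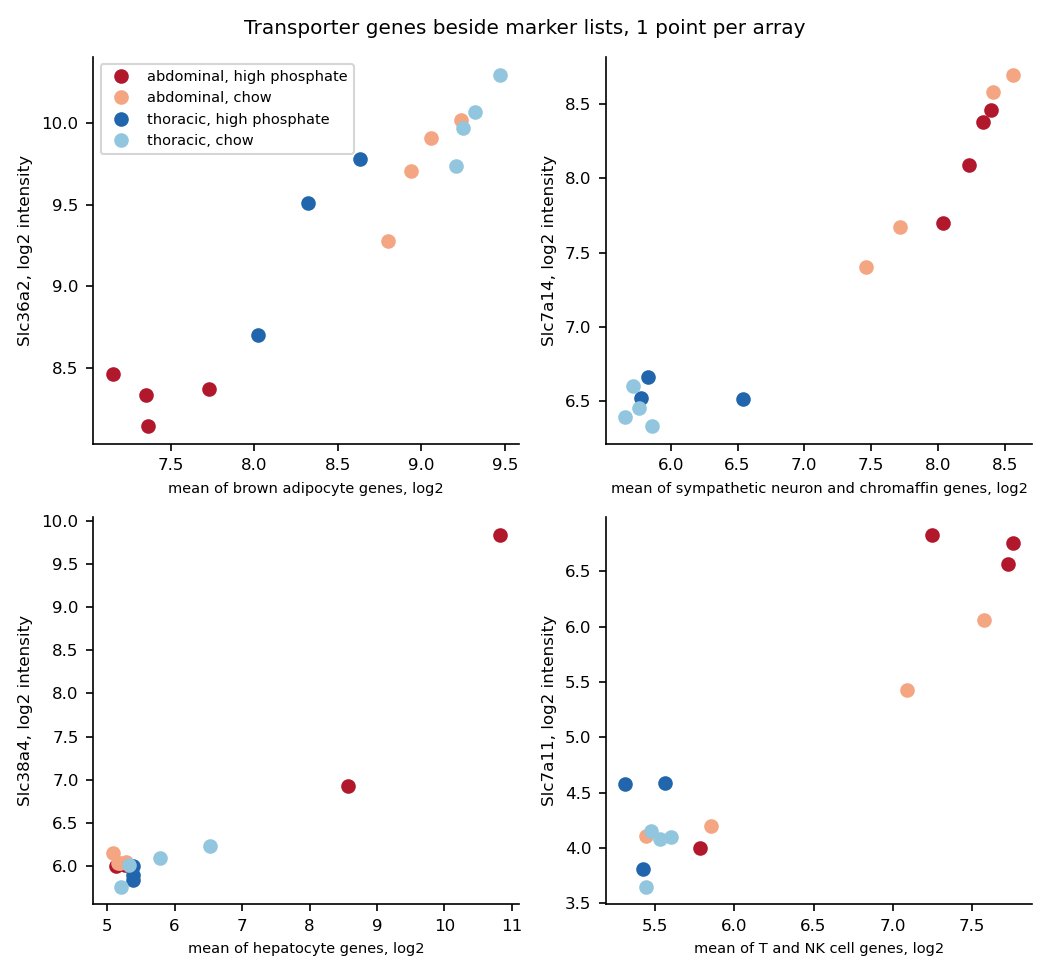
Log2 intensity of 4 transporter genes against the mean log2 intensity of a marker list, 1 point per array, coloured by segment and diet. Slc36a2 is plotted against 9 brown adipocyte genes, Slc7a14 against 9 sympathetic neuron and chromaffin genes, Slc38a4 against 11 hepatocyte genes and Slc7a11 against 11 T and NK cell genes, and arrays high in the list are also high in the transporter.

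Slc1a5, a carrier of glutamine and other neutral amino acids, stood at 11.17, 11.10 and 11.13 in thoracic high-phosphate arrays, against 10.54, 10.15, 10.78 and 10.51 in abdominal ones. All thoracic arrays lay above all abdominal ones, by 0.64 ± 0.115, 1.56-fold (limma adjusted p = 0.002267), and its other probe set differed by 0.62. Without the 5 abdominal arrays high in T and NK cell genes the difference was 0.36 and was not called (limma adjusted p = 0.2136). On chow the segments overlapped, at 10.68 to 10.89 in the thoracic and 10.51 to 10.79 in the abdominal aorta. Slc36a2 was higher in the thoracic aorta on high phosphate by 1.00 ± 0.218, 2.01-fold (limma adjusted p = 0.007797), with the array values given above, and by 0.96 without those 5 arrays, which was not called (limma adjusted p = 0.214).

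Slc38a11, a little-studied SLC38 member, stood at 7.24, 6.89 and 7.23 in thoracic high-phosphate arrays, against 8.21, 8.07, 8.76 and 7.54 in abdominal ones. The segments did not overlap, with a difference of -1.02 ± 0.242, 2.03-fold lower (limma adjusted p = 0.01228), which lost its call without thoracic high-phosphate array 2 (0.05449) and was -1.64 without the 5 abdominal arrays high in T and NK cell genes (0.01043). The lysosomal exporter Slc36a1 stood at 6.22, 6.56 and 6.28 in thoracic high-phosphate arrays, against 6.97, 6.85, 6.80 and 6.75 in abdominal ones. These groups were also apart, by -0.49 ± 0.140 (limma adjusted p = 0.02954). Slc7a6 stood at 7.99, 8.20 and 7.74 in thoracic high-phosphate arrays, against 7.57, 7.42, 7.64 and 7.38 in abdominal ones. The lowest thoracic array was just above the highest abdominal array, and the difference was 0.48 ± 0.151 (limma adjusted p = 0.04891). The Slc36a1 call ended in 6 and the Slc7a6 call in 13 of 26 other settings, among them the fit without those 5 arrays, at -0.45 for Slc36a1 (0.3712) and 0.34 for Slc7a6 (0.6716). Slc7a6 was also not called without the 2 arrays high in hepatocyte genes, at 0.49 (0.09617).

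On chow the cationic amino acid carrier Slc7a3 stood at 4.80, 4.66, 4.60 and 4.99 in the thoracic aorta, against 5.21, 5.12, 5.66 and 5.33 in the abdominal aorta. All thoracic values were lower, by -0.57 ± 0.127 (limma adjusted p = 0.01805). Slc38a6 stood at 6.19, 6.31, 6.07 and 6.25 in thoracic chow arrays, against 6.46, 6.47, 6.58 and 6.56 in abdominal ones. The segments did not overlap, and the difference was -0.31 ± 0.0769 (limma adjusted p = 0.0307). The Slc7a3 call ended in 4 of 25 and the Slc38a6 call in 7 of 26 other settings, among them the fit without the 5 arrays high in T and NK cell genes, at -0.31 (limma adjusted p = 0.1829).

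**Figure D4:**
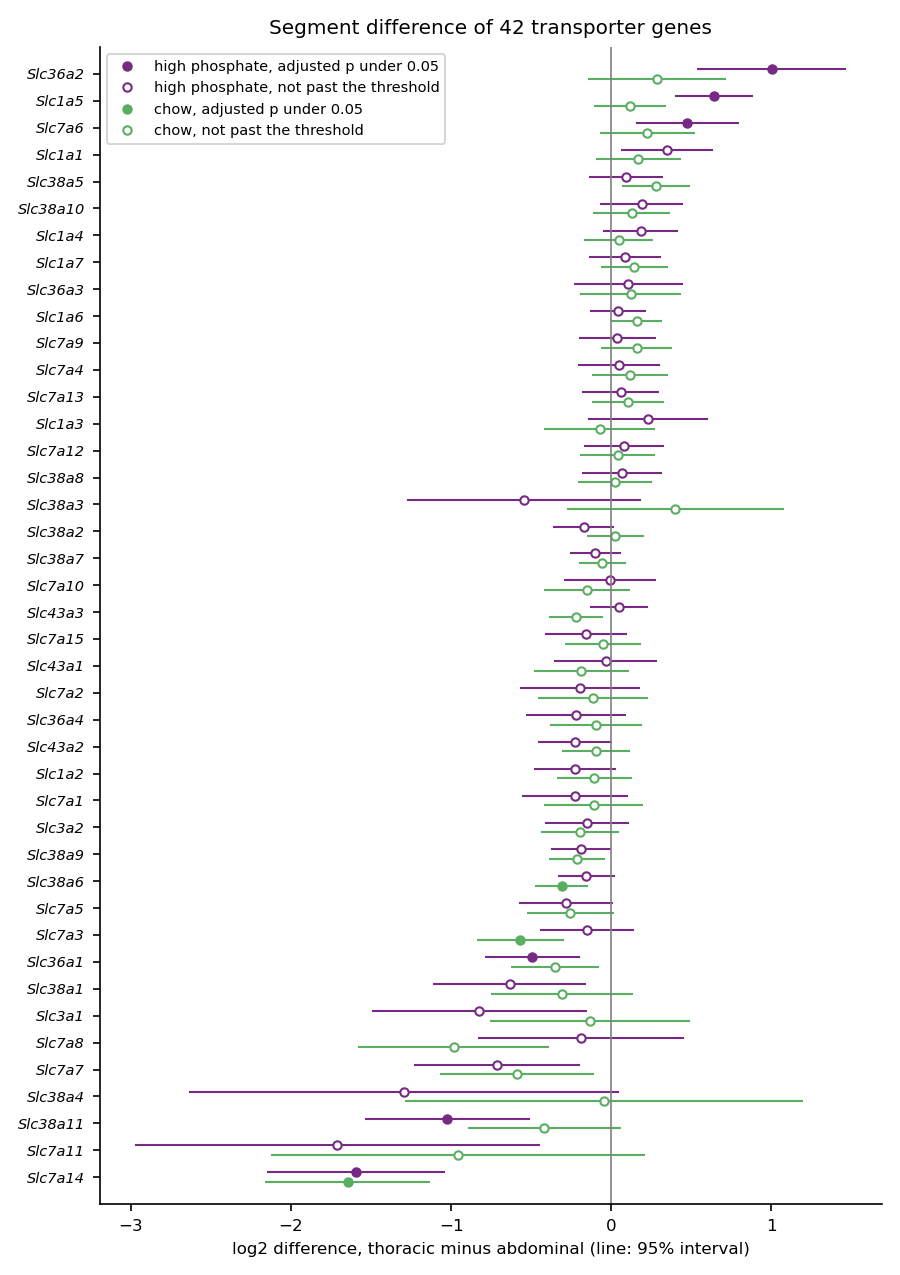
Log2 difference between the thoracic and the abdominal aorta for each of the 42 members with its 95% interval, on high phosphate and on chow, with filled points for adjusted p under 0.05. Slc7a14 lies below 0 on both diets, at -1.60 on high phosphate and -1.65 on chow, and Slc36a2 lies farthest above 0, at 1.00 on high phosphate.

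The 26 members not called in any comparison included the arginine carriers Slc7a1 and Slc7a2, the neuronal glutamate carrier Slc1a1 and the light chains Slc7a7 and Slc7a9. Slc7a1 lay between 6.03 and 6.64 over all 15 arrays. Slc7a7, which exports cationic amino acids, stood at 8.48, 8.51, 7.56 and 8.15 in abdominal high-phosphate arrays, against 7.60, 7.75, 7.52 and 8.59 on chow. Its lowest abdominal high-phosphate array was array 3, the one of that group with low T and NK cell genes. Slc38a1, a glutamine carrier, was also lowest in that array, at 7.61, 7.80, 6.62 and 7.36, against 7.08, 7.09, 7.14 and 7.73 on chow.

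Many of the other uncalled members stayed within narrow ranges of log2 intensity over all 15 arrays. In SLC1 these were the glutamate carriers Slc1a1 (5.78 to 6.49), Slc1a2 (4.97 to 5.71), Slc1a6 (5.75 to 6.15) and Slc1a7 (5.76 to 6.20) and the neutral amino acid carrier Slc1a4 (5.64 to 6.17). The largest diet difference among these was that of Slc1a2 in the abdominal aorta, 0.24. In SLC38 the glutamine carriers Slc38a5 and Slc38a7 ranged from 4.70 to 5.28 and from 6.16 to 6.44, and Slc38a8 and Slc38a10 from 5.12 to 5.72 and from 5.34 to 5.90. In SLC7 the light chain Slc7a9, which takes up cystine and cationic amino acids in kidney, ranged from 4.19 to 4.75, and Slc7a13, another partner of Slc3a1, from 3.98 to 4.58. Slc7a2, an arginine carrier of liver and activated macrophages, was highest at 7.63 in abdominal high-phosphate array 4, the array highest in hepatocyte genes, and lay between 6.40 and 7.07 in the others. Of the genes counted apart, Slc7a6os lay at 7.27 to 7.66 and Slc36a1os at 4.03 to 4.72, and neither was called.

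The transporters were set beside the enzymes and sensors that meet amino acids inside the cell. Of 24 measured genes of branched-chain amino acid breakdown, which takes up leucine, isoleucine and valine, 14 fell and 0 rose on high phosphate in the abdominal aorta. In the thoracic aorta 2 fell and 0 rose. These are 58.3% and 8.33% of the list, where 5.06% and 1.08% of all genes were lower. The median difference of the 24 genes was -0.50 in the abdominal and -0.23 in the thoracic aorta. Echs1, Mccc1 and Pcca, which encode mitochondrial enzymes of this breakdown, differed by -1.05 ± 0.125, -1.01 ± 0.120 and -1.03 ± 0.124 in the abdominal aorta. Thoracic Mccc1 fell by 0.61 and Pcca by 0.62. Brown adipocytes burn these amino acids, and the fall of their marker genes given above went with these values, its part not tested.

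Of 23 genes of the amino acid response, the program that ATF4 runs when amino acids are scarce, 1 rose and 4 fell in the abdominal aorta. In the thoracic aorta 1 rose and 1 fell, and the median differences were -0.11 and 0.02. The shares called were 21.7% and 8.7%, where 7.01% and 2.47% of all genes were called. Averaged over both segments 3 rose and 5 fell, 34.8% of the list against 10.7% of all genes. Ddit4, an inhibitor of mTORC1 that glucocorticoids and stress also raise, rose by 1.00 ± 0.153 in the abdominal aorta. Asns, which makes asparagine, fell by 0.34 there, and Psph, the last enzyme of serine synthesis, fell by 0.63 in the abdominal and 0.66 in the thoracic aorta. Mthfd2, a mitochondrial folate enzyme, rose by 0.66 ± 0.149 in the thoracic aorta. Atf4 itself differed by -0.02 and Trib3 by -0.04 in the abdominal aorta, and neither was called.

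Of 28 genes that sense amino acids for mTORC1, 1 rose and 1 fell in the abdominal aorta and 1 rose in the thoracic aorta. These shares, 7.14% and 3.57%, were close to the 7.01% and 2.47% of all genes called, while in the average 4 rose and 4 fell, 28.6% against 10.7% of all genes. Sesn1, which restrains mTORC1 and is a target of FoxO factors, rose in both segments, by 0.75 ± 0.114 and 0.56 ± 0.124, and Tsc2, another brake on mTORC1, fell by 0.35 in the abdominal aorta. Of 20 enzymes of glutamine, glutamate, arginine and proline, 1 rose and 4 fell in the abdominal aorta and 2 rose in the thoracic aorta. Their median differences were -0.10 and 0.01. The shares called were 25% and 10%, against the same 7.01% and 2.47% of all genes. In the average 3 of these enzymes rose and 4 fell, 35% against 10.7% of all genes. Prodh, which starts proline breakdown, rose by 0.59 ± 0.147 and 0.77 ± 0.158, and Glul, which makes glutamine, rose by 0.52 ± 0.122 in the thoracic aorta.

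Transporters of amino acids and peptides in other families were called at or below the share of all genes. Of 28 measured, with a median difference of 0.06 in the abdominal and 0.04 in the thoracic aorta, 1 fell in the abdominal aorta, Slc16a10, which carries aromatic amino acids, by 0.55 (limma adjusted p = 0.0437), and limma called 0 in the thoracic aorta, where 3 had an unadjusted p under 0.05. In the average Slc6a6, the taurine carrier, rose by 0.38 ± 0.0740 and Slc15a2, a peptide carrier, by 0.51 ± 0.133, and Slc16a10 fell by 0.48. These 3 of 28 are 10.7%, as for all genes in the average. Of 12 genes of glutathione synthesis and turnover, for which Slc7a11 supplies cystine, 1 fell in the abdominal aorta, Chac2, which breaks glutathione down, by 0.47. That is 8.33% of the list, close to the 7.01% of all genes called there. In the thoracic aorta limma called 0 of the 12, and 1 had an unadjusted p under 0.05.

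**Figure D5:**
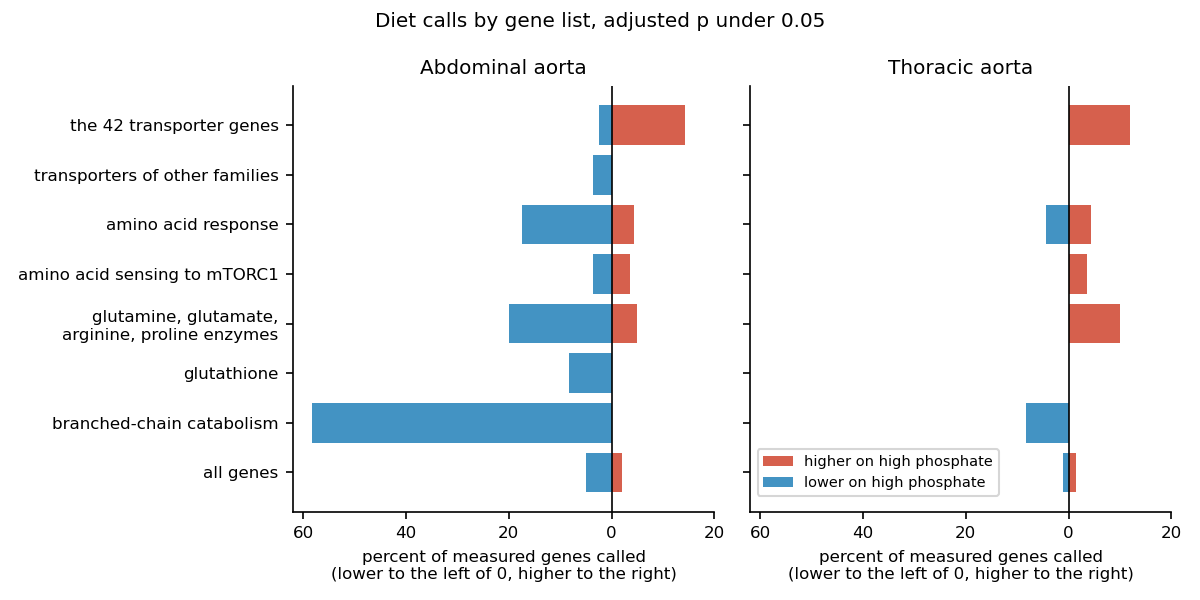
Percent of measured genes called for diet in the transporter families, 6 lists of amino acid genes and all genes. The abdominal aorta and the thoracic aorta are shown apart, with genes lower on high phosphate left of 0 and higher ones right of it. The transporter families lie mostly to the right, with 14.3% higher in the abdominal aorta, and branched-chain breakdown to the left, with 14 of 24 genes lower there.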

How the data were processed

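RNA of 15 aorta samples was labelled with biotin after amplification (NuGEN Applause WT-Amp Plus ST), per the labels. The values deposited by the authors were taken as log2 intensities. RMA and Partek appear in the submitters' processing notes without a version or a stated role, and the log base was inferred from the range, 1.381 to 13.33. Array medians were 5.778 to 5.84. No scan dates or detection calls were used here, so batches could not be looked for and signal over background is unknown. Precision is limited by how few arrays each group has.

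Of 41345 probe sets, 23521 name exactly 1 gene in the platform's table and 23477 of these matched RefSeq by symbol or identifier. The probe set with the highest mean was kept, which gave 22180 genes, and 4 members have a second probe set. The limma package (version 3.58.1, R 4.3.3) fitted 1 mean per group by lmFit and moderated the variances by eBayes with a trend, on 11 residual degrees of freedom. Tests were two-sided, and p-values were adjusted over the whole table by the method of Benjamini and Hochberg, with calls under 0.05. A self-test on simulated data ran after the main fit and before its results were written out, and its values are not given here. Figures were drawn with matplotlib 3.10.9.

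The members, pathway lists, marker lists and tests were chosen with earlier results of these data known. Array values are printed for members called in a comparison, and up to 4 called genes of each pathway list may be named per comparison; Atf4 and Trib3 were named after their values were seen, as were the uncalled members given as values. The marker lists are means of log2 values of the measured genes. Alternatives were median centring, quantile normalization, array weights, no variance trend, no dim genes, the mean of the probe sets of a gene and only the groups compared. Others were a block by replicate number, a random block by diet and replicate number, and each array left out. Those without the arrays high in T and NK cell or hepatocyte genes were added after seeing the data.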

Additional observations from a re-analysis of the deposited data

Results flagged for a closer look

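Of 126 member and group combinations with 4 arrays, 7 held an array far from the other 3 by Dixon's criterion at the 95% level, and chance flags about 1 in 20. In the abdominal aorta these were Slc7a11 in high-phosphate array 3 at 4.00, with the others at 6.57 to 6.83, and Slc7a9 in high-phosphate array 4 at 4.19, with the others at 4.43 to 4.47. Slc38a1 stood at 7.73 in abdominal chow array 4, with the others at 7.08 to 7.14. In the thoracic aorta on chow, Slc7a11 stood at 3.65 and Slc7a7 at 7.04 in array 1, with the others at 4.08 to 4.15 and 7.32 to 7.38. Slc38a2 stood at 9.14 in thoracic chow array 3, with the others at 9.39 to 9.44, and Slc7a15 at 5.53 in thoracic chow array 4, with the others at 5.75 to 5.78. The abdominal flags of Slc7a11 and Slc38a1 fall on arrays that differ in T and NK cell genes, whose mean was 5.78 in high-phosphate array 3 and 7.58 in chow array 4.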

How the results depend on the processing

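No called member changed direction under any alternative run. Without the 5 abdominal arrays high in T and NK cell genes, which leaves 1 high-phosphate and 2 chow arrays there and takes the lone array to vary like the other groups, 1 member was called for diet in the abdominal aorta, Slc7a8, and 3 between segments on high phosphate. Without the 2 abdominal high-phosphate arrays high in hepatocyte genes 12 members were called between segments on high phosphate and 5 on chow. Array weights gave 10 on high phosphate. With 1 array left out, the calls ranged from 6 to 10 in the abdominal and from 3 to 6 in the thoracic diet comparison, from 8 to 10 in the average, and between segments from 4 to 11 on high phosphate and from 1 to 5 on chow; the thoracic diet count was 3 without high-phosphate array 2 or 3 or chow array 1 or 4. In the difference of the diet changes it was 0 throughout. The causes were not tested. Whether same-numbered arrays of the segments share a mouse is not known, and they were not treated as pairs because not every pair correlated above 0.1: deviations of same-numbered arrays on the same diet correlated at 0.03 to 0.122 over 7 pairs, 1 of them above 0.1, and all 7 above 0, and 9 of 14 arrays correlated best with their own number, which is a hint of pairing from the data. A block by replicate number alone joins same-numbered arrays of both diets, which cannot share a mouse. With it 7 members were called in the abdominal aorta, 5 in the thoracic aorta, 9 in the average and 0 in their difference. Between segments 5 were called on high phosphate and 4 on chow. Slc7a5 in the abdominal aorta (limma adjusted p = 0.06275), Slc36a4 in the average (0.06055) and Slc36a1 between segments (0.06508) lost their calls. The random block by diet and replicate number joins only same-numbered arrays of the same diet, and its consensus correlation was 0.094. No member call of the main fit ended in it, and Slc7a8 between segments on chow gained one (limma adjusted p = 0.03935). The fit on only the groups compared gives no value for the average or the difference, which use all groups, and ended the calls of Slc38a9 (0.05743) and Slc7a5 (0.1583) in the abdominal, Slc3a2 (0.06538) in the thoracic diet comparison and Slc38a6 (0.07008) between segments on chow.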

Other observations

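Outside the transporter families, the genes of branched-chain amino acid breakdown also differed between segments. On high phosphate 16 of 24 were higher in the thoracic aorta and 0 lower, where 7.57% of all genes were higher, and on chow limma called 0, with 3 at an unadjusted p under 0.05. The 9 brown adipocyte genes moved with this: 6 were called higher in the thoracic aorta on high phosphate, with a mean of 8.02 to 8.63 against 7.15 to 7.73 in the abdominal aorta, and 1 was called higher on chow, with a mean of 9.21 to 9.47 against 8.80 to 9.24. Their part in the result was not tested. Echs1 was higher in the thoracic aorta by 0.87 ± 0.134 on high phosphate, and by 0.29 ± 0.125 on chow, where it was not called. Of 28 genes that sense amino acids for mTORC1, 14.3% were called between segments on high phosphate and 7.14% on chow. For 28 transporters of other families these shares were 10.7% and 7.14%, where 13.8% and 4.78% of all genes were called. In the first list Rragd and Rragb, GTPases that bring mTORC1 to the lysosome, were lower in the thoracic aorta on both diets. Rragd differed by -0.71 ± 0.188 on high phosphate and -0.91 ± 0.174 on chow, and Rragb by -1.02 ± 0.220 and -0.76 ± 0.204. In the second Slc6a15, a neuronal carrier of neutral amino acids, was lower in the thoracic aorta by -1.89 ± 0.333 on high phosphate and -1.46 ± 0.308 on chow. The sympathetic neuron and chromaffin mean given above and a mean of 5 Schwann cell genes were also lower in the thoracic aorta. Their part in these values was not tested.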
